A study of Rattus norvegicus with 6 samples.

Results

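The genes described here encode the proteins that license replication origins, open the DNA and copy it at the fork. They were chosen as a list of 50 gene symbols, set out by step, and all 50 were found among the 18631 genes of the deposited table. The steps are origin licensing with 15 genes, activation of the helicase with 8, the polymerases with 10, the clamp, ligation and nascent DNA with 13, and fork protection with 4.

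Polyadenylated RNA was sequenced from vascular smooth muscle cells of the rat, which contract the vessel wall and can return to division. The 3 libraries labelled MIAT knockdown come from cells in which siRNAs and antisense oligonucleotides, together at 50 nM, targeted the long noncoding RNA MIAT over 72 h. The other 3 libraries carry the title Scr and a wild-type genotype label, and are called Scr control. The labels repeat the same treatment text for all 6 libraries and do not say what the control cells received, nor the strain, sex, age or passage of the cells or whether each library is a culture of its own. The spread that the p-values measure may therefore be technical. The p-values behind the words rose and fell come from a fit that removes differences shared by same-numbered libraries of both groups. They measure how much the difference between same-numbered libraries varied, not the full spread between these 6 libraries. Miat itself was not analysed here, so the extent of its knockdown is unknown and was not checked in any library, and the groups go by their labels alone.

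Replication begins when the origin recognition complex (ORC) and the factors CDC6 and CDT1 load rings of MCM2 to MCM7 onto DNA before S phase. In S phase the kinase CDC7 with its activator DBF4 helps to convert each ring into the active CMG helicase, made of CDC45, the MCM ring and the GINS complex. Polymerase alpha then primes the new strands, and polymerases delta and epsilon extend them with the sliding clamp PCNA, which the RFC complex loads, while RPA coats single-stranded DNA. Many of these genes are known targets of E2F transcription factors and are transcribed mainly in dividing cells, as smooth muscle cells are when they grow in culture or in a thickening vessel wall.

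Depth and library quality touch every value below. Total counts ranged from 17793811 to 20121161 per library, and each of the 50 genes passed the filter on low counts with 56 to 1055 counts in its lowest library. Control library 3 differed most from the other libraries of its group, where the chi-square between libraries, divided by its degrees of freedom, was 54.5 to 83.6, against 20.6 to 34.8 for the other pairs of libraries within a group. All 7 smooth muscle markers were detected, with a summed level of 4794 to 7013 FPKM in knockdown and 5348 to 6681 FPKM in control libraries (FPKM scale a count by the length of its gene and the size of its library), whereas the endothelial markers summed to 0.765 to 0.884 FPKM in knockdown and 0.923 to 1.63 FPKM in control libraries. With the test used below 3 of the 7 smooth muscle markers were lower in knockdown libraries, where 11.1% of all tested genes were. Also lower were 1 of 3 tested endothelial markers (Kdr) and 4 of 5 tested pericyte and fibroblast markers. None of the 3 tested macrophage and leukocyte markers passed. The summed level of the pericyte and fibroblast markers was 150 to 186 FPKM in knockdown and 184 to 213 FPKM in control libraries. Macrophage and leukocyte markers summed to 12.0 to 15.2 FPKM in knockdown and 12.2 to 18.9 FPKM in control libraries. Ptprc had 0 or 1 count in every library and Adgre1 had 1 to 3. Cd14, by contrast, had 234 to 277 counts, Cd68 had 44 to 185 and Csf1r had 43 to 123. The part of these markers in the results below was not tested.

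Replication genes had higher mean levels in the MIAT knockdown libraries at every step, but whether single genes passed the test depended on how the libraries were matched. The planned edgeR fit without a block called 0 of the 50 genes and 0 of all 13423 tested genes. With the replicate number, shared by the library titles of both groups, as a block, 32 of 50 genes rose, 0 fell and 18 did not pass, where 10.5% of all tested genes rose and 11.1% fell, 21.6% in all. Rose and fell here mean an adjusted p under 0.05 in edgeR's quasi-likelihood test with the block, adjusted by Benjamini-Hochberg over all tested genes. The median log2 fold change was 0.38, a 1.30-fold difference, against -0.01 over all tested genes. The list's log2 fold changes lay between -0.15 and 0.76. Scaling by total counts in place of TMM shifts the log2 fold change of the median gene up by 0.107 in the block fit, and with it 77.5% of all called genes were higher, against 48.7% with TMM, and 38 of the 50 genes were higher past the threshold, where 21% of all tested genes were. The 6 genes that total counts added were Orc6, Pold1, Pold3, Rfc3, Fen1 and Wdhd1. The median of the 50 genes stood 0.39 above that of all genes under both scalings. In bulk RNA, a larger share of cells that transcribe a gene and more of its RNA per cell cannot be told apart.

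In the fit without the block the smallest adjusted p in the list was 0.106, for Rfc4, and 27 of the 50 genes were higher at an unadjusted p under 0.05, where 10.4% of all genes were. Of all tested genes 2576 had an unadjusted p under 0.05 in either direction. DESeq2 without the block called 6 of the 50 higher, where 2.85% of all genes with an adjusted p were. The log2 fold changes of the fits with and without the block differed by at most 0.068 for any of the 50 genes. With the block, leaving out pair 1 gave 10 genes that passed, where 3.96% of all genes were higher, leaving out pair 2 gave 16, against 2.56%, and leaving out pair 3 gave 35, against 14.1%. DESeq2 with the block called 16, against 5.16% of all genes, and edgeR with a correction for gene length called 26, against 9.51%. With the block, limma-voom called 32, against 10.8% of all genes, edgeR with DESeq2 size factors 31, against 10.1%, with no low-count filter 34, against 8.49%, with a filter at 1 CPM 32, against 11%, and against a minimum fold of 1.2 it called 3, against 1.42%. There were 8 genes that passed in the full block fit and also without each pair in turn, namely Cdc6, Mcm5, Mcm6, Gins4, Rfc4, Rpa2, Tipin and Clspn. The share of all tested genes that passed in each of these fits was not worked out, so this count has no background beside it.

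**Figure D1:**
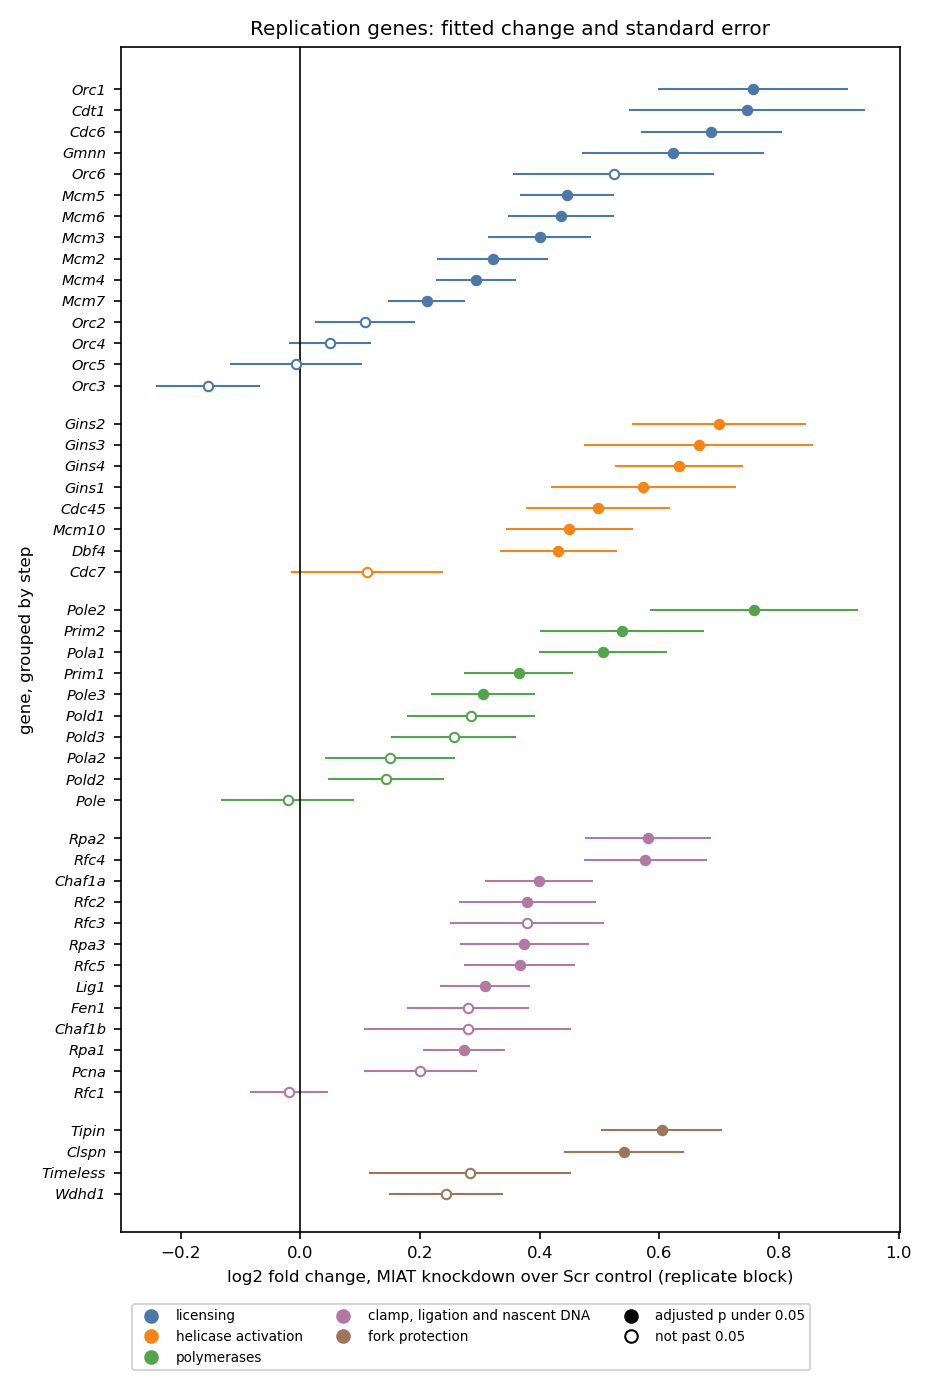
Fitted log2 fold change of MIAT knockdown over Scr control for each of the 50 genes (x axis, fit with the replicate block, bars are 1 standard error), ordered within the 5 steps. Filled points passed an adjusted p of 0.05. To the right of 0 lie 46 of the 50 genes, where 48.5% of all tested genes had a log2 fold change above 0. The 4 genes to its left, Orc3, Orc5, Pole and Rfc1, did not pass.

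The difference was present in each same-numbered pair of libraries and smallest in pair 2. The median log2 difference of the 50 genes was 0.51 in pair 1, 0.19 in pair 2 and 0.47 in pair 3, with 48, 44 and 42 of the 50 genes higher in the knockdown library. Over all genes the medians were within 0.01 of 0 in each pair. In all 3 pairs 38 of the 50 were higher, where 28.0% of all genes were, and 0 were lower in all 3, where 28.5% of all genes were.

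Libraries of 1 group were spread as widely as the groups differed for some genes. The summed level of the 50 genes was 1441, 1401 and 1270 CPM (counts scaled to a common library size with TMM) in knockdown libraries 1 to 3, against 1103, 1235 and 991 CPM in control libraries 1 to 3. The groups did not overlap, but knockdown library 3 lay close above control library 2. Control library 3 held the lowest value of the 6 for 32 of the 50 genes, and knockdown library 1 the highest for 25. How often these 2 libraries held such values over all tested genes was not worked out. Without control library 3 the median of the fit without the block was 0.26, against 0.38 with all libraries. Knockdown values exceeded all control values for 25 of the 50 genes, where 14.2% of all genes did so, and fell under all of them for 0, where 11.8% did.

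**Figure D2:**
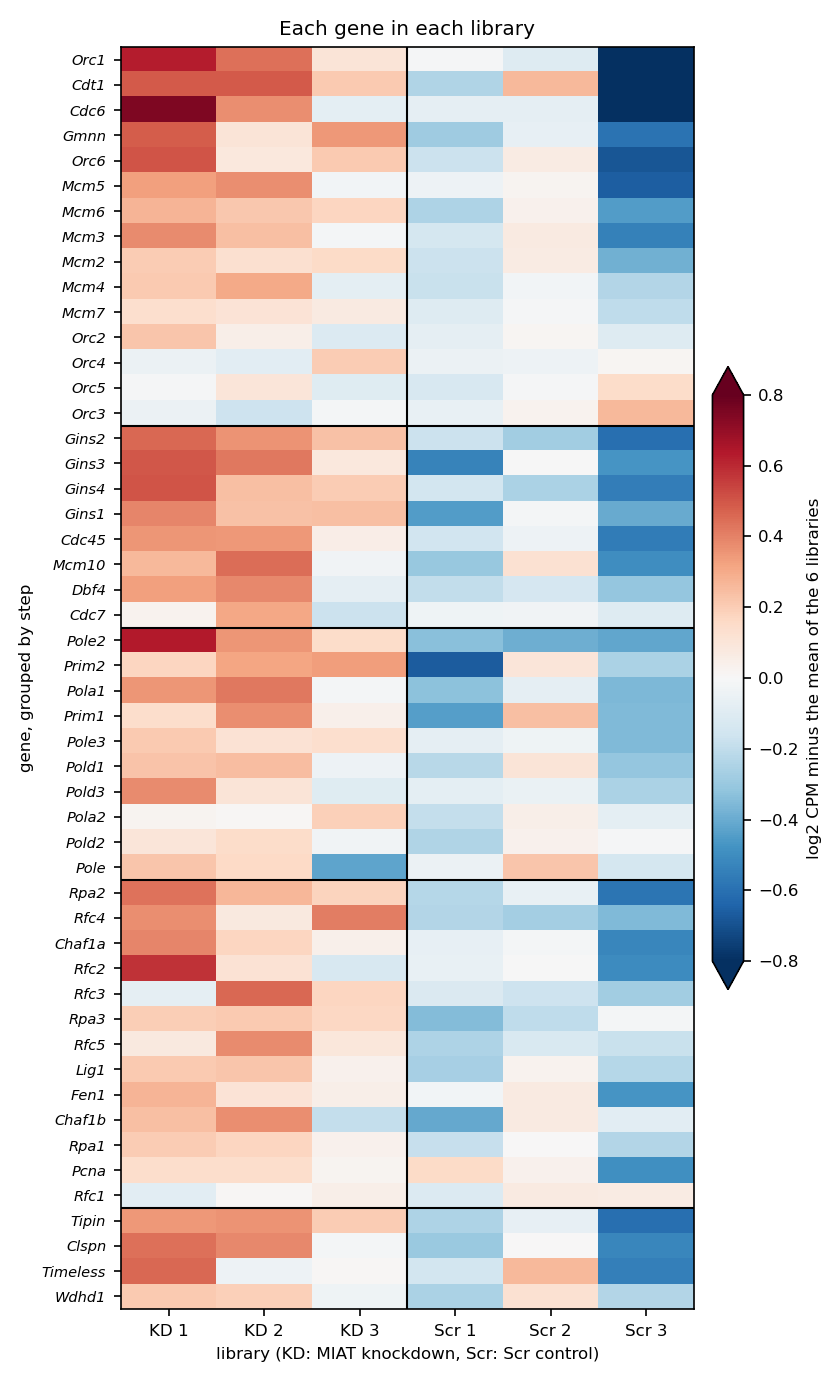
Log2 CPM of each of the 50 genes in each library, as the difference from the mean of the gene's 6 libraries (colour, clipped at 0.8), with knockdown libraries left of control libraries and the genes grouped by step. Control library 3 is the darkest blue column, with the lowest value for 32 of the 50 genes, and knockdown library 1 holds the highest for 25. The shares over all tested genes were not worked out.

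**Figure D3:**
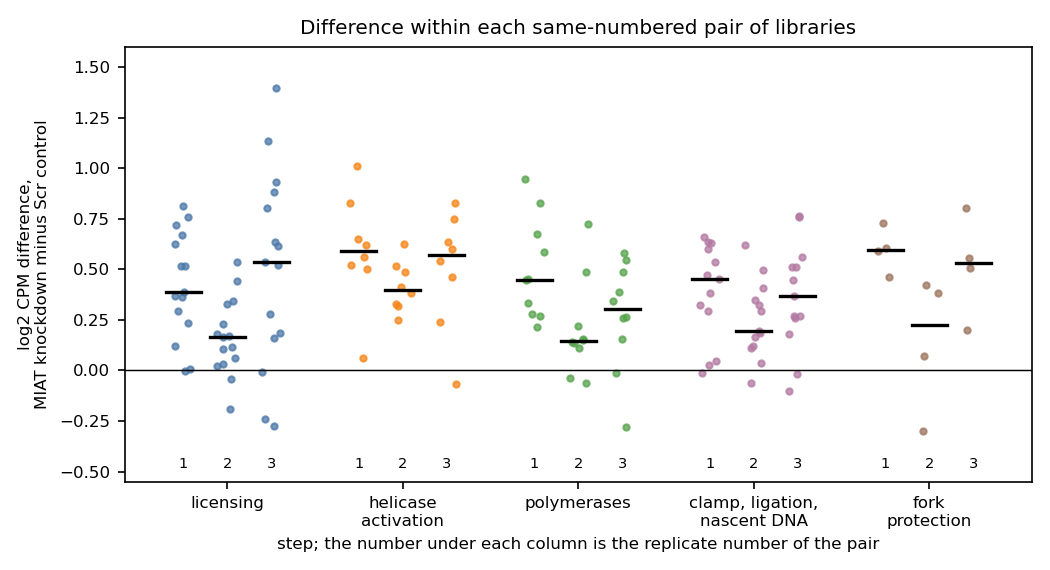
Difference in log2 CPM within each same-numbered pair of libraries, knockdown minus control (y axis), for the genes of each step, with the median of the step as a black bar. Over all 50 genes the medians were 0.51, 0.19 and 0.47 in pairs 1 to 3.

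Sequence motifs in the promoters played no part in the choice of the list. RefSeq promoters of the rat assembly GRCr8, 300 bases each with 250 before and 50 after the gene start, were matched by symbol for 44 of the 50 genes; the authors' genome build is not given, so these coordinates are those of the reference. The search covered 2 E2F octamers, TTTCCCGC and TTTGGCGC, on both strands. At least 1 was held by 17 of the 44 promoters (38.6%), against 3.01% of the 10335 tested genes with a promoter and 1.53% of all promoters in the table. Other forms, such as TTTCGCGC in the stretch before Mcm2, were not searched, so all counts of E2F octamers hold for these 2 alone. A pair of octamers can overlap where TTTGGCGC meets its own reverse complement, as in Gins1. The CCAAT box, which the factor NF-Y binds, was found by its letters CCAAT on either strand in 52.3% of the 44, against 38.0% of the tested genes, and the GC box core GGGCGG in 61.4% against 62.9%. These matches describe letters in a window and are not evidence that a factor binds there.

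An E2F octamer was found in 11 of the 27 promoters of genes that rose and in 6 of the 17 of genes that did not pass. The 250 bases before the start of Mcm5 and Gins1 are shown because both genes rose, both belong to the replicative helicase, and each promoter holds 2 E2F octamers before the start; E2F octamers and CCAAT boxes are in capitals, read 5′ to 3′ along the gene's strand.
Mcm5 (chr19:13488563-13488812, + strand): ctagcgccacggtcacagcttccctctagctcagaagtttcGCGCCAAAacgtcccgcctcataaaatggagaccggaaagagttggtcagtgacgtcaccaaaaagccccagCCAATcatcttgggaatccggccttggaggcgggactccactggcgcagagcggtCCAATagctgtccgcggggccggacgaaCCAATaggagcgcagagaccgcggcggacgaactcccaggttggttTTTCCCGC
Gins1 (chr3:160184670-160184919, + strand): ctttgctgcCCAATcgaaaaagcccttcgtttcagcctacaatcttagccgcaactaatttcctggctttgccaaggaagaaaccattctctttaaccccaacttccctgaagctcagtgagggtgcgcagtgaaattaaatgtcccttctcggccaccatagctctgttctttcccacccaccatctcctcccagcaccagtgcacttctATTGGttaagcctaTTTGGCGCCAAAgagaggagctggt

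In the Mcm5 stretch the first octamer begins at base -209 relative to the start and the second at base -8, with 3 CCAAT boxes between them. In Gins1 the overlapping pair begins at bases -25 and -21, next to a CCAAT box that begins at base -39. Windows of 30 bases around the first octamer follow for further genes, in capitals for the octamer alone: Mcm6, Gins3, Pola1, Pole2 and Tipin rose, whereas Orc3, Pole and Timeless hold the same letters and did not pass.
Mcm6 (chr13:42404473-42404502, - strand): tggcgtctgctTTTGGCGCgaaattagcgt
Gins3 (chr19:9434697-9434726, - strand): gtgagtgaggcGCGGGAAAacgagtttgaa
Pola1 (chrX:62342509-62342538, - strand): gtcatcacaggGCGCCAAAtgcagtcccgc
Pole2 (chr6:93435334-93435363, - strand): cttcggcggtgGCGCCAAAtctcaaacatg
Tipin (chr8:73676049-73676078, + strand): gcgtacccttgGCGCCAAActtcccagctt
Orc3 (chr5:53977871-53977900, - strand): ccatgcctcctTTTCCCGCaagccccgcct
Pole (chr12:52053646-52053675, - strand): cacatgagagcGCGCCAAAttttcccggga
Timeless (chr7:1239439-1239468, + strand): tctgccgagtgGCGGGAAAgtctgcgaccc

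**Figure D4:**
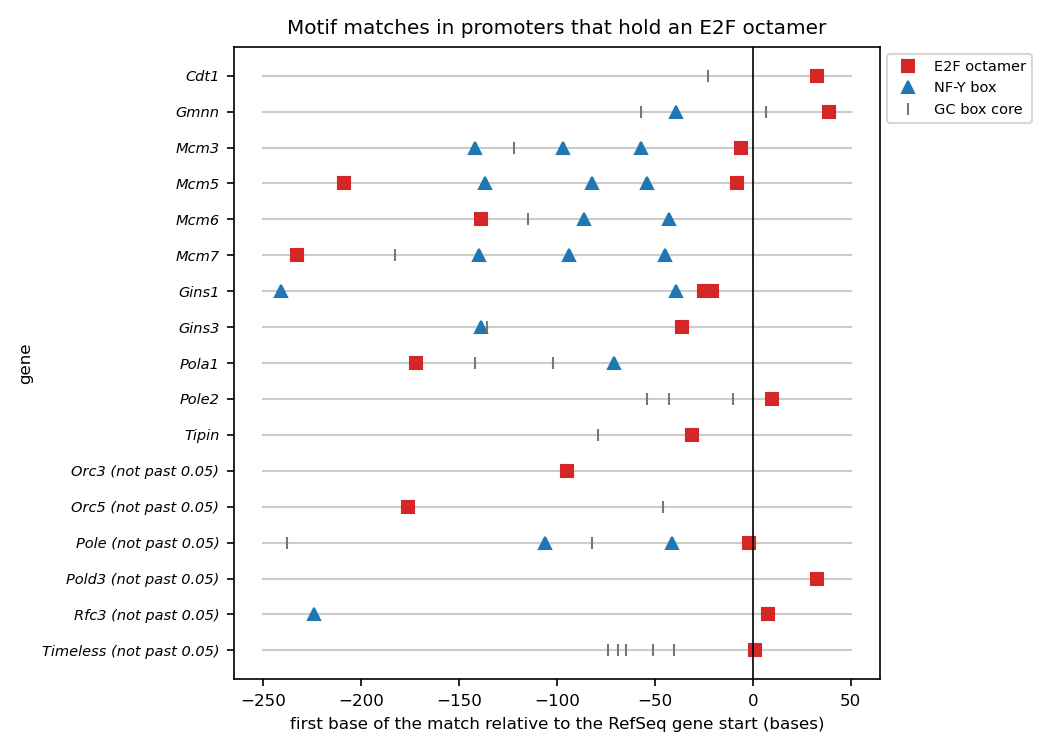
Position of motif matches (x axis, first base relative to the RefSeq gene start, in bases) in the 17 promoters that hold an E2F octamer, with genes that rose above those that did not pass. Red squares are E2F octamers, blue triangles CCAAT boxes (NF-Y box) and grey bars the GC box core; the first octamer lies before the start in 11 promoters and after it in 6.

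Origin licensing genes rose at the loading factors and the MCM ring, while most subunits of the origin recognition complex did not pass. Of the 15 licensing genes 10 rose and 5 did not pass, with a median log2 fold change of 0.40. Orc1, the largest ORC subunit, had 11.3, 9.98 and 7.89 CPM in the knockdown libraries, against 7.31, 6.85 and 3.53 CPM in the control libraries. All knockdown values lay above the control values, and Orc1 rose 1.69-fold (log2 fold change 0.76, standard error 0.16, edgeR adjusted p = 0.0131). The other subunits of the complex were at 0.11, -0.15, 0.05, -0.01 and 0.52 for Orc2 to Orc6 on the log2 scale, with edgeR adjusted p between 0.0563 and 0.973. The sign of Orc5 turned with total count scaling (0.10 with the block). A difference between Orc1 and the other subunits was not tested.

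Among the subunits that did not pass, Orc6 came closest to the threshold. It had 15.1, 11.3 and 12.4 CPM in the knockdown libraries, against 9.47, 11.2 and 6.64 CPM in the control libraries, so that the lowest knockdown library lay just above the highest control library. Orc2 had 38.1, 33.7 and 30.2 CPM in the knockdown libraries, against 31.0, 32.9 and 30.4 CPM in the control libraries. Orc3 had 24.9, 22.9 and 25.4 CPM in the knockdown libraries, against 24.7, 26.2 and 30.8 CPM in the control libraries, with control library 3 the highest. For both genes the groups overlapped. Orc4 had 59.8, 58.3 and 71.2 CPM in the knockdown libraries, against 59.8, 60.0 and 62.5 CPM in the control libraries. Orc5 had 15.4, 16.5 and 14.4 CPM in the knockdown libraries, against 14.1, 15.3 and 17.1 CPM in the control libraries. In Orc4 and Orc5 the group means lay within the spread of the libraries.

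The factors that bring the MCM ring to the origin rose, as did the gene of their inhibitor. Cdc6, the ATPase that joins ORC to load the ring, had 21.1, 16.3 and 11.9 CPM in the knockdown libraries, against 12.0, 12.0 and 6.80 CPM in the control libraries. Knockdown library 3 lay just below control libraries 1 and 2, so the groups overlapped, but each knockdown library was above the control library of the same number. Cdc6 rose 1.61-fold (log2 fold change 0.69, standard error 0.12, edgeR adjusted p = 0.00664). Cdt1, which carries the MCM ring to ORC, had 14.3, 14.3 and 11.7 CPM in the knockdown libraries, against 8.62, 12.2 and 4.39 CPM in the control libraries. Control library 2 exceeded knockdown library 3, and control library 3 was by far the lowest. Cdt1 rose 1.68-fold, at an edgeR adjusted p of 0.0294. Geminin, encoded by Gmnn, binds CDT1 and blocks relicensing within a cell cycle. Gmnn had 17.8, 13.6 and 16.1 CPM in the knockdown libraries, against 10.4, 12.1 and 8.41 CPM in the control libraries, with no overlap, and rose 1.54-fold at an edgeR adjusted p of 0.0226.

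All 6 genes of the MCM ring rose, by 1.16-fold to 1.36-fold. The ring is the core of the replicative helicase, and its subunits are among the more abundant replication proteins of dividing cells. Per gene length, Mcm7 was at 24.1 ± 0.818 FPKM in knockdown and 19.4 ± 1.75 FPKM in control libraries (SD, n = 3) and Mcm2 at 15.5 ± 0.684 FPKM in knockdown and 11.6 ± 2.03 FPKM in control libraries. Mcm7 was the highest of the ring in 5 of 6 libraries and Mcm2 or Mcm3 the lowest in each, and the highest subunit exceeded the lowest by 1.54-fold to 2.02-fold within a library. Mcm4 and Mcm6, at 22.9 ± 2.97 FPKM in knockdown and 17.3 ± 1.63 FPKM in control libraries and 22.4 ± 1.07 FPKM in knockdown and 15.5 ± 2.88 FPKM in control libraries, were neighbours of Mcm7 in this order and their libraries overlapped with it in the control group.

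On the CPM scale the ring genes separated the groups to different degrees. Mcm5 had 52.8, 54.5 and 41.5 CPM in the knockdown libraries, against 41.0, 42.9 and 26.7 CPM in the control libraries. Mcm6 had 65.0, 62.6 and 60.7 CPM in the knockdown libraries, against 45.4, 55.2 and 39.6 CPM in the control libraries. Mcm3 had 51.4, 46.8 and 39.0 CPM in the knockdown libraries, against 35.9, 41.6 and 27.2 CPM in the control libraries. Of these, Mcm6 showed no overlap between groups, while in Mcm5 and Mcm3 control library 2 exceeded knockdown library 3. MCM4, MCM6 and MCM7 form a subcomplex with helicase activity of its own in the test tube. Mcm2 had 51.9, 49.3 and 50.1 CPM in the knockdown libraries, against 40.1, 47.2 and 34.6 CPM in the control libraries. Mcm4 had 76.4, 81.7 and 62.7 CPM in the knockdown libraries, against 58.3, 65.0 and 56.2 CPM in the control libraries. Mcm7 had 62.4, 61.2 and 59.9 CPM in the knockdown libraries, against 52.9, 56.4 and 49.4 CPM in the control libraries. The knockdown values of Mcm2 and Mcm7 all exceeded the control values, and those of Mcm4 did not because knockdown library 3 lay under control library 2. The ring's smallest change was that of Mcm7, 1.16-fold at an edgeR adjusted p of 0.0477, and its largest that of Mcm5, 1.36-fold at 0.00732. Mcm6 and Mcm3 had log2 fold changes of 0.44 and 0.40.

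Whether licensing genes passed depended on single pairs of libraries. Without pair 1 the calls of Cdt1 (0.77), Gmnn (0.55), Mcm2 (0.30), Mcm3 (0.34), Mcm4 (0.25) and Mcm7 (0.20) ended, and without pair 2 the calls of Orc1 (0.88), Mcm4 (0.27) and Mcm7 (0.26) ended, and without pair 3 the call of Mcm7 (0.18) ended. Values in brackets are log2 fold changes without that pair. With the block, the call of Mcm7 also ended in DESeq2 (adjusted p = 0.236), with DESeq2 size factors and with the length correction (0.0731), and those of Mcm2 and Mcm4 in DESeq2 (0.0880 and 0.0566). Orc6 passed without pair 2 (0.78) and without pair 3 (0.35).

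**Figure D5:**
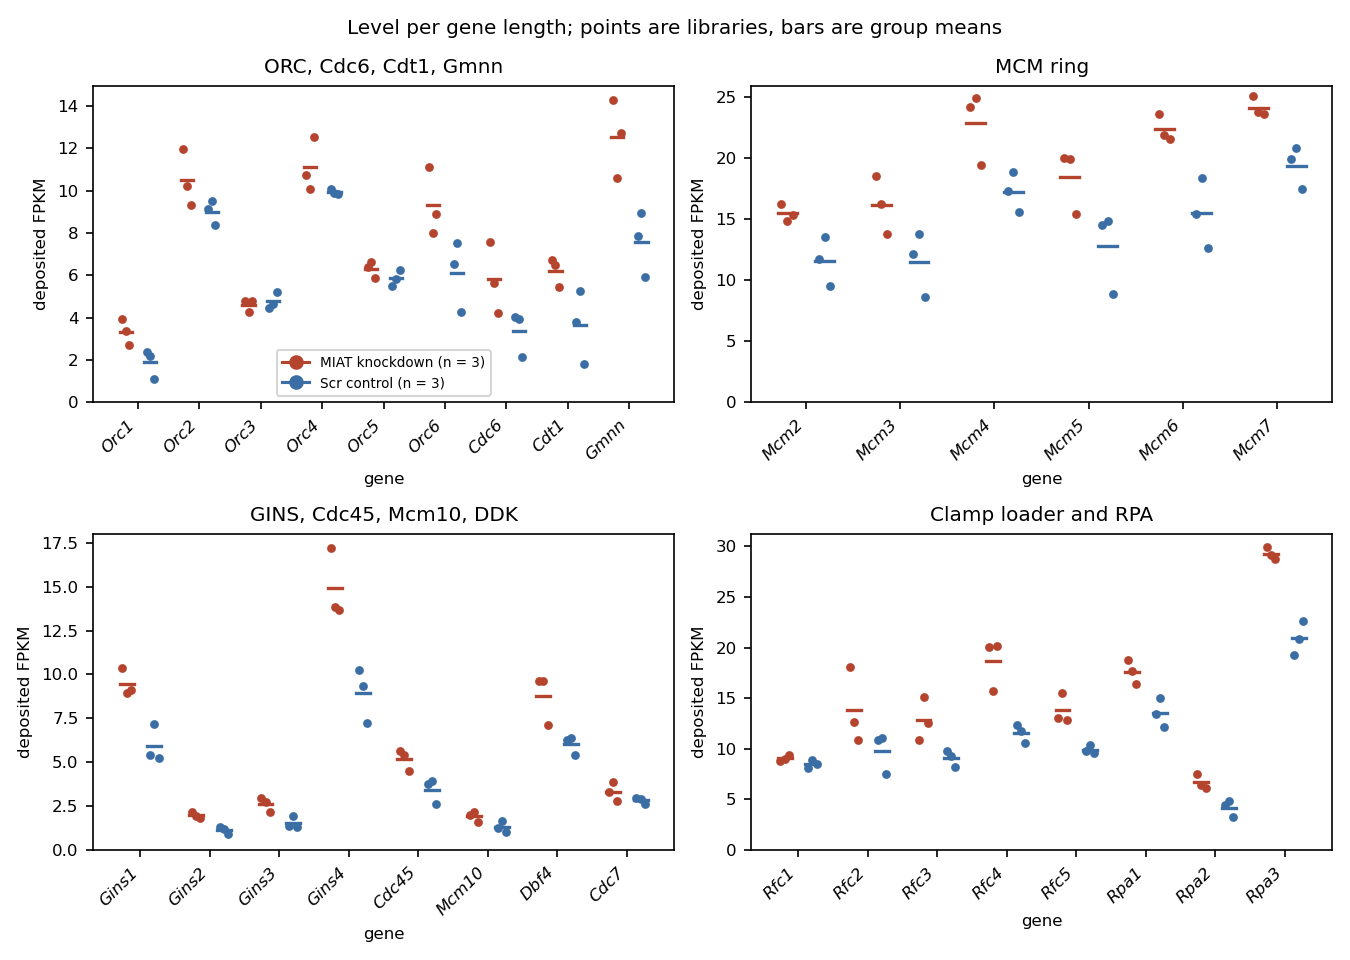
Deposited FPKM (y axis, from 0) of licensing factors, MCM ring, helicase activation factors, and clamp loader with RPA, with 1 point per library and a bar for the mean of each group of 3, knockdown left of control for each gene. Orc1 differs between the groups (1.69-fold in the fit) and all 4 GINS genes separate, while the libraries of Orc2, Orc3 and Orc5 overlap. In FPKM the libraries of Orc4 and Orc6 also separate narrowly, though neither gene passed. FPKM carry no TMM scaling.

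Genes that turn the loaded ring into a moving helicase rose in all but 1 case. Of 8 genes 7 rose and 1, Cdc7, did not pass, with a median log2 fold change of 0.54. In 6 of the 8 all knockdown values exceeded the control values, where 14.2% of all tested genes did so. The 4 GINS genes, which encode a complex that binds CDC45 and the MCM ring, all rose, by 1.49-fold to 1.62-fold. Gins2 had 8.95, 8.37 and 7.68 CPM in the knockdown libraries, against 5.78, 5.39 and 4.28 CPM in the control libraries. Gins3 had 6.51, 6.17 and 4.88 CPM in the knockdown libraries, against 3.17, 4.60 and 3.32 CPM in the control libraries. Gins4 had 18.5, 15.4 and 15.0 CPM in the knockdown libraries, against 11.7, 10.9 and 8.89 CPM in the control libraries. In each of the 3 the lowest knockdown library lay above the highest control library. Gins4 was the most abundant gene of this step per length, at 14.9 ± 1.99 FPKM in knockdown and 8.95 ± 1.53 FPKM in control libraries, and had the smallest adjusted p of the step (log2 fold change 0.63, standard error 0.11, edgeR adjusted p = 0.00627). For Gins2 and Gins3 the edgeR adjusted p was 0.0128 and 0.0398.

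Of the remaining helicase factors Cdc45, Mcm10 and Dbf4 rose while Cdc7 did not pass. A difference between Dbf4 and Cdc7 was not tested. Cdc45, the GINS partner in the helicase, and Mcm10, which helps the helicase to start, rose 1.41-fold and 1.37-fold. Dbf4, the activating subunit of the kinase that phosphorylates the MCM ring, rose 1.35-fold and had 23.7, 24.6 and 18.0 CPM in the knockdown libraries, against 16.5, 17.2 and 15.2 CPM in the control libraries. Its catalytic partner Cdc7 had 10.3, 12.5 and 8.98 CPM in the knockdown libraries, against 9.86, 9.93 and 9.42 CPM in the control libraries. The Cdc7 groups overlapped, with a log2 fold change of 0.11 and an edgeR adjusted p of 0.565. The ratio of Dbf4 to Cdc7 in FPKM was 2.92, 2.49 and 2.53 in knockdown libraries and 2.12, 2.19 and 2.04 in control libraries. Without pair 1 the calls of Mcm10 (0.40), Cdc45 (0.50), Gins1 (0.45), Gins2 (0.74), Gins3 (0.49) and Dbf4 (0.39) ended, and without pair 2 the calls of Mcm10 (0.52), Cdc45 (0.56), Gins1 (0.74), Gins2 (0.73), Gins3 (0.80) and Dbf4 (0.39) ended. With the block, DESeq2 did not call Mcm10, Cdc45, Gins1, Gins3 or Dbf4 (adjusted p of 0.0666 to 0.144), and with the length correction Gins1 (0.0626) and Gins3 (0.0509) did not pass in edgeR.

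Among polymerase genes 3 of 4 subunits of polymerase alpha with primase rose, as did the small subunits Pole2 and Pole3 of polymerase epsilon. The listed subunits of polymerase delta did not pass. On the log2 scale Pole3 stood at 0.30, and Pold1, Pold2 and Pold3 at 0.29, 0.14 and 0.26. A difference between the polymerases was not tested. Of 10 genes 5 rose and 5 did not pass, with a median of 0.30. Pole2, the second subunit of the leading-strand polymerase epsilon, had 7.65, 6.28 and 5.45 CPM in the knockdown libraries, against 3.91, 3.76 and 3.69 CPM in the control libraries. The control libraries were tightly grouped and all knockdown libraries lay above them, with the list's largest log2 fold change, 0.76 (standard error 0.17, edgeR adjusted p = 0.0180). Pole, its catalytic subunit, had 26.7, 25.5 and 17.0 CPM in the knockdown libraries, against 22.2, 26.7 and 20.7 CPM in the control libraries, with knockdown library 3 the lowest of the 6. Pole stood at -0.02 with an edgeR adjusted p of 0.912, and its sign turned with total count scaling (0.08 with the block). Pole3, the histone-fold subunit, rose 1.24-fold.

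Polymerase alpha and its primase lay the RNA and DNA primers that start each new strand. Pola1, the catalytic subunit, had 18.4, 19.3 and 14.3 CPM in the knockdown libraries, against 11.5, 13.7 and 11.2 CPM in the control libraries. Prim2, the large primase subunit, had 13.0, 14.3 and 14.5 CPM in the knockdown libraries, against 7.26, 12.3 and 9.64 CPM in the control libraries. Both genes separated the groups, and rose 1.42-fold and 1.45-fold. Prim1, the small primase subunit, was the most abundant polymerase gene per length, at 27.4 ± 2.98 FPKM in knockdown and 20.0 ± 5.54 FPKM in control libraries, and had 46.4, 54.4 and 43.1 CPM in the knockdown libraries, against 30.9, 49.5 and 32.9 CPM in the control libraries. Control library 2 exceeded both knockdown libraries 1 and 3, yet the difference was positive in each pair and Prim1 rose 1.29-fold (edgeR adjusted p = 0.0240). Pola2, the accessory subunit, had 14.0, 13.8 and 15.7 CPM in the knockdown libraries, against 12.0, 14.2 and 13.0 CPM in the control libraries, with overlapping groups and an edgeR adjusted p of 0.356.

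Polymerase delta copies the lagging strand, and its 3 listed subunits had positive differences that did not pass. Pold1, the catalytic subunit, had 16.6, 16.8 and 13.8 CPM in the knockdown libraries, against 12.1, 15.2 and 11.5 CPM in the control libraries. Pold2 had 21.9, 22.7 and 20.1 CPM in the knockdown libraries, against 17.3, 21.0 and 20.3 CPM in the control libraries. Pold3 had 20.7, 17.1 and 14.9 CPM in the knockdown libraries, against 15.1, 15.4 and 13.4 CPM in the control libraries. The groups overlapped in each, and the log2 fold changes were 0.29, 0.14 and 0.26, with edgeR adjusted p of 0.0902, 0.325 and 0.114. Without pair 1 the calls of Pola1 (0.42), Prim1 (0.26), Prim2 (0.41), Pole2 (0.65) and Pole3 (0.32) ended, and without pair 2 the calls of Pola1 (0.51), Prim2 (0.71), Pole2 (0.77) and Pole3 (0.38) ended, and without pair 3 the call of Pole3 (0.21) ended. In DESeq2 with the block Prim2, Pole2 and Pole3 did not pass (adjusted p of 0.0666, 0.0664 and 0.160). Pold3 passed without pair 3 (0.30). With total count scaling and the block Pold1 and Pold3 passed (edgeR adjusted p of 0.0289 and 0.0330).

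At the clamp, its loader and the single-strand binding complex, 8 of 13 genes rose and 5 did not pass, with a median of 0.37. All 3 RPA genes rose. Rpa2, the middle subunit and a target of checkpoint kinases, had 26.8, 23.8 and 22.4 CPM in the knockdown libraries, against 16.9, 19.0 and 13.2 CPM in the control libraries. The groups did not overlap, and Rpa2 rose 1.50-fold (log2 fold change 0.58, standard error 0.11, edgeR adjusted p = 0.00824). Rpa1, the large DNA-binding subunit, and Rpa3, the small one, rose 1.21-fold and 1.30-fold, also without overlap.

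The clamp loader RFC is a ring of 5 subunits, of which Rfc2, Rfc4 and Rfc5 rose while Rfc1 and Rfc3 did not pass. Rfc4 had 24.9, 20.3 and 25.6 CPM in the knockdown libraries, against 16.4, 15.9 and 15.0 CPM in the control libraries, the clearest separation in the complex, and rose 1.49-fold with an edgeR adjusted p of 0.00779. Rfc2 and Rfc5 rose 1.30-fold and 1.29-fold. Rfc3 had 13.0, 18.8 and 15.4 CPM in the knockdown libraries, against 12.6, 12.2 and 11.2 CPM in the control libraries, without overlap but with unequal knockdown libraries (log2 fold change 0.38, edgeR adjusted p = 0.0676). Rfc1, the large subunit that is specific to this loader, had 39.8, 42.4 and 43.6 CPM in the knockdown libraries, against 39.1, 44.3 and 44.1 CPM in the control libraries. Its groups overlapped fully, at -0.02 with an edgeR adjusted p of 0.867, and the sign turned with total count scaling (0.09 with the block) and with the length correction (0.03).

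Pcna, the sliding clamp and the most abundant gene of the list at 71.6 ± 3.77 FPKM in knockdown and 59.0 ± 14.7 FPKM in control libraries, did not pass. It had 82.2, 82.3 and 75.6 CPM in the knockdown libraries, against 82.8, 76.2 and 53.1 CPM in the control libraries. Control library 1 was the highest of the 6 and control library 3 the lowest by a wide margin, and the log2 fold change of 0.20 (edgeR adjusted p = 0.162) became 0.31 when pair 1 was left out, 0.25 when pair 2 was and 0.05 when pair 3 was, and none of these passed. Reads of processed copies of Pcna could be counted with it, since no source used here gives the counting rules. Fen1, the nuclease that trims Okazaki fragment flaps, had 30.4, 27.1 and 26.0 CPM in the knockdown libraries, against 24.7, 26.4 and 18.2 CPM in the control libraries, with overlapping groups and an edgeR adjusted p of 0.0819. Lig1, the ligase that seals the fragments, rose 1.24-fold without overlap.

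Chromatin assembly factor 1 deposits histones behind the fork. Its large subunit gene Chaf1a had 40.0, 34.3 and 31.4 CPM in the knockdown libraries, against 29.2, 30.2 and 21.2 CPM in the control libraries, without overlap, and rose 1.32-fold (edgeR adjusted p = 0.0167). The middle subunit gene Chaf1b had 8.17, 8.96 and 6.07 CPM in the knockdown libraries, against 5.22, 7.29 and 6.53 CPM in the control libraries, with overlapping groups, and did not pass (log2 fold change 0.28, standard error 0.17, edgeR adjusted p = 0.279). Without pair 1 the calls of Rfc2 (0.25), Rfc5 (0.39), Rpa1 (0.22), Rpa3 (0.30), Lig1 (0.23) and Chaf1a (0.37) ended, and without pair 2 the calls of Rfc2 (0.51), Rfc5 (0.30), Rpa1 (0.33), Rpa3 (0.36) and Lig1 (0.37) ended. With the length correction the calls of Rfc2, Rfc5 and Rpa3 ended (edgeR adjusted p of 0.0892, 0.0686 and 0.234), and the log2 fold change of Rpa3 was 0.22, against 0.37 without the correction. In DESeq2 with the block these 3 genes, Rpa1 and Lig1 did not pass (adjusted p of 0.0774 to 0.173). Rfc3 passed without pair 1 (0.54) and without pair 3 (0.35), and Chaf1b without pair 3 (0.46).

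Of the 4 fork protection genes Tipin and Clspn rose and Timeless and Wdhd1 did not pass, with a median of 0.41. TIPIN and TIMELESS form a complex that steadies stalled forks, and claspin, encoded by Clspn, links it to the checkpoint kinase CHK1. Tipin had 24.1, 24.3 and 21.9 CPM in the knockdown libraries, against 16.0, 18.1 and 12.5 CPM in the control libraries. Clspn had 25.3, 24.4 and 18.4 CPM in the knockdown libraries, against 15.2, 18.7 and 13.0 CPM in the control libraries. The Tipin groups did not overlap, whereas control library 2 just exceeded knockdown library 3 in Clspn. Tipin rose 1.52-fold (log2 fold change 0.60, standard error 0.10, edgeR adjusted p = 0.00620), the smallest adjusted p of the 50 genes, and Clspn 1.46-fold (edgeR adjusted p = 0.00863). Both calls held without each pair.

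Timeless, the partner of Tipin, had 24.3, 17.1 and 17.8 CPM in the knockdown libraries, against 15.9, 21.1 and 12.0 CPM in the control libraries. It was lower in the knockdown library of pair 2 and higher in the others, and did not pass (log2 fold change 0.28, standard error 0.17, edgeR adjusted p = 0.264). Wdhd1, which encodes the AND-1 protein that couples polymerase alpha to the helicase, had 28.4, 28.0 and 24.0 CPM in the knockdown libraries, against 20.6, 26.7 and 20.9 CPM in the control libraries, with overlapping groups, a log2 fold change of 0.24 and an edgeR adjusted p of 0.103. Without pair 2 Timeless passed (0.58), and without pair 3 so did Wdhd1 (0.26).

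Ratios between partner genes compare their levels per length within a library, which no scaling of libraries can change. They carry no correction for differences between libraries that depend on gene length. Of 6 ratios of FPKM between partners, chosen after the values were seen, those of Pole2 to Pole and Dbf4 to Cdc7 did not overlap between groups. Both set a gene that rose without overlap over a partner that did not pass, so they partly restate those values. How often ratios of other gene pairs do not overlap was not worked out. The Pole2 to Pole ratio was 0.830, 0.712 and 0.927 in knockdown libraries and 0.511, 0.408 and 0.516 in control libraries. With the block and the length correction the log2 fold change was 0.74 for Pole2 and 0.09 for Pole, against 0.76 and -0.02 without the correction. The Cdt1 to Gmnn ratio averaged 0.504 ± 0.098 in knockdown and 0.460 ± 0.14 in control libraries (SD, n = 3), with overlapping groups. Overlap was also found for Pola1 to Pola2, Chaf1a to Chaf1b and Tipin to Timeless, and because these ratios were picked from the values they were not tested.

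Other replication factors that are not among the 50 included genes that rose and genes that fell. From a list of 39, 38 were in the table and 37 passed the filter on low counts, and with the block 9 of these rose and 2 fell, against 10.5% and 11.1% of all genes, and 26 did not pass. Their median was 0.26. Dna2 was not analysed here, and Chtf8 had at most 2 counts in a library.

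Among the factors that passed, the 3 largest rises were those of Dtl, Pclaf and Skp2, and the 2 genes that fell, Ddb1 and Cul4a, encode parts of the ligase that DTL serves. Dtl, which encodes the receptor that targets CDT1 for destruction on PCNA, had 19.8, 19.4 and 12.8 CPM in the knockdown libraries, against 10.8, 12.8 and 7.60 CPM in the control libraries, and rose 1.67-fold (edgeR adjusted p = 0.00399). Skp2, the receptor of another ubiquitin ligase that targets CDT1, had 13.2, 11.2 and 7.99 CPM in the knockdown libraries, against 6.97, 6.12 and 6.53 CPM in the control libraries, and rose 1.62-fold (edgeR adjusted p = 0.0167). Pclaf, a PCNA-associated factor, had 17.4, 16.4 and 16.3 CPM in the knockdown libraries, against 9.47, 13.4 and 8.19 CPM in the control libraries, and rose 1.64-fold (edgeR adjusted p = 0.0121). The groups did not overlap in Skp2 and Pclaf, and overlapped narrowly in Dtl, where knockdown library 3 lay just under control library 2. The remaining 6 that rose were Ticrr, which fires licensed origins, Asf1b, Rad18, Hells, Pole4 and Uhrf1, with log2 fold changes of 0.29 to 0.59. Ddb1, the adaptor that holds the DTL receptor, had 604, 669 and 613 CPM in the knockdown libraries, against 727, 761 and 763 CPM in the control libraries. Cul4a, the scaffold, had 88.7, 91.9 and 87.4 CPM in the knockdown libraries, against 103, 106 and 106 CPM in the control libraries. Both fell without overlap, with log2 fold changes of -0.26 and -0.23 and edgeR adjusted p of 0.0147 and 0.0195. With total count scaling and the block neither passed, at -0.15 and -0.13. The Ddb1 and Cul4a calls also ended without pair 1 (-0.25 and -0.24) and without pair 2 (-0.29 and -0.25), and that of Skp2 without pair 1 (0.59) and pair 2 (0.61).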

How the data were processed

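Polyadenylated RNA of rat vascular smooth muscle cells was measured in 3 MIAT knockdown and 3 Scr control libraries, grouped by title and genotype label. The authors deposited raw counts as 1 table, whole numbers listed by symbol, and FPKM as another. The FPKM matched the counts divided by a gene length and the library total (100% of nonzero values, relative tolerance 1e-06). No source used here names the aligner, counting program, strand setting or genome build, so reads of overlapping, antisense or near-identical genes could not be told apart. Total counts were 17793811 to 20121161 per library.

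Counts were scaled by TMM and filtered with filterByExpr in edgeR 4.0.16 (R 4.3.3), which left 13423 genes, and tested with edgeR's quasi-likelihood test, adjusted by Benjamini-Hochberg over all of them at 0.05. CPM are after TMM, and log2 differences within pairs use log2 CPM with a prior count of 2. The planned test had no covariate. The titles of both groups number the libraries 1 to 3. After removal of group means, same-numbered libraries correlated across all genes with r of 0.68, 0.52 and 0.58, against -0.56 to -0.05 for differently numbered ones (for the 50 genes alone 0.46, 0.07 and 0.39, against -0.52 to 0.27, so that pair 2 was not set apart). Removing group means makes the deviations of a group cancel, so positive values for same-numbered libraries make the others negative on average. The negative range is therefore no separate support for the pairing. The pairing rests on these data and the shared numbers, not on a statement in the labels. A second fit with the number as a block is therefore printed beside the planned one, and rose and fell refer to it. The biological coefficient of variation was 8.09% with the block on 2 residual degrees of freedom and 19.7% without it on 4, and leaving out a pair leaves 1.

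The 50 genes, the other replication factors and the markers were chosen with earlier results of these data known. Values per library are given in each step for the 3 largest called changes, the most abundant gene, the MCM ring and genes that did not pass; of the other factors, the 3 largest called changes in each direction are given, and further genes were added after their values were seen. The 6 partner ratios were also chosen after the values were seen. Promoters are those of RefSeq (GRCr8), found for 44 of the 50 genes. Alternatives were DESeq2 1.42.0, limma-voom and limma-trend on log2(FPKM + 1) or log2(FPKM + 0.1) (limma 3.58.1), scaling by DESeq2 size factors or by total counts, no low-count filter or at least 1 CPM in 3 libraries, each library left out, and with the block also a loess correction for gene length (span 0.5), glmTreat at a fold of 1.2 and each pair left out.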

Additional observations from a re-analysis of the deposited data

How the results depend on the processing

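The replicate block decided the calls. Without it edgeR called 0 of the 50 genes under each scaling and filter tried and without each library, as did limma-voom and limma-trend, while DESeq2 called 6 higher. With the replicate block, 32 were higher and 0 lower in edgeR, 32 in limma-voom (10.8% of all genes higher) and 16 in DESeq2 (5.16%). In edgeR with the block 38 were higher with total counts (21%), 31 with DESeq2 size factors (10.1%) and 34 with no low-count filter (8.49%). There were 32 with at least 1 CPM in 3 libraries (11%), 26 with the length correction (9.51%) and 3 against a minimum fold of 1.2 (1.42%). Leaving out pair 1 gave 10 (3.96%), pair 2 gave 16 (2.56%) and pair 3 gave 35 (14.1%). Of the other factors, 0 were called in the planned fit. DESeq2 without the block called 2 higher and 1 lower. With the replicate block 9 were higher and 2 lower in edgeR, 10 and 2 in limma-voom, 4 and 1 in DESeq2, 19 and 0 with total counts, 9 and 2 with DESeq2 size factors, 11 and 2 with no filter, 9 and 2 at 1 CPM, 11 and 1 with the length correction, 1 and 0 at a fold of 1.2, and 2 to 16 higher and 0 to 3 lower without 1 pair. The cause was not tested. The median log2 fold change of the 50 genes stayed positive, between 0.26 without control library 3 and 0.49 with total counts. No sign of the 32 genes that rose turned in the 26 alternatives. Of 1144 values of single genes, 1113 kept their direction. The 31 that turned belong to 5 genes, none of which passed. Orc4 stood at -0.040 to 0.11 without 1 library and at -0.024 with the block without pair 3. Cdc7 stood at -0.012 to 0.23 without 1 library and at -0.0018 with the block without pair 2. Orc5 stood at 0.10 with total counts (with and without the block), 0.000798 with no filter (0.00278 with the block), 0.088 and 0.10 in limma-trend, -0.075 to 0.066 without 1 library (0.04 without knockdown library 3), and 0.11 with the block without pair 3. Pole stood at 0.10 with total counts (0.085 with the block), 0.00316 with no filter, 0.065 and 0.080 in limma-trend, 0.091 with the block and length correction, -0.12 to 0.17 without 1 library (0.098 without control library 2), and 0.097 with the block without pair 3. Rfc1 stood at 0.089 with total counts (also with the block), 0.080 and 0.088 in limma-trend, 0.035 with the block and length correction, -0.079 to 0.019 without 1 library (0.0069 without control library 3, 0.0022 if control library 2 was left out), and 0.0041 with the block without pair 2. The least covered of the 50 genes had 56 counts in its lowest library, and no detection limit was measured.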
